A study of Mus musculus with 147 samples.

Results

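T (Brachyury), Eomes, Mixl1, Mesp1, Hand1, Msx1 and Msx2 encode DNA-binding proteins that act in the primitive streak and in the mesoderm leaving it. They were chosen by name, 7 of the 31053 genes in the table of unique molecular identifiers (UMIs, each standing for 1 captured RNA molecule). Single-cell STRT-seq, which counts transcripts at their 3′ ends, was run on cells of the mouse male germline and on neighbouring cells from E6.5 to the adult testis. The methods describe choosing males by PCR for Sry at E10.5 and E11.5, and describe no sexing of earlier embryos. At E10.5 some cells are labelled male and others carry no sex label. Of 11896 wild-type cells, 11598 passed the filter on genes and UMIs, and 2007 of these were from E6.5 to E9.5. The cells of 1 time-point and 1 biological replicate (R1, R2 and so on) were summed as a pool, and the 61 pools, not the cells, were treated as replicates. Levels are given as CPM, the UMIs of a gene per 1000000 UMIs of a pool.

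All wild-type animals were the offspring of C57BL/6 females and males with the Blimp1-mVenus (BV) and Stella-ECFP (SC) transgenes, so that reporters were also present in the control groups. These transgenes follow Prdm1 and Dppa3, which are switched on in nascent germ cells. At E6.5 and E7.5 cells carry the sampling labels EPIrandom or FACSrandom and no reporter gate. At E8.5 to E10.5 whole embryos were dissociated and BVSC cells were sorted, and at E11.5 to E18.5 cells labelled BVSC and negative cells were sorted from gonads. From E14.5, when Blimp1-mVenus fades, cells were collected on Stella-ECFP alone, although their label remains BVSC. After birth cells were picked by germ cell morphology from testes, and at PND30 some cells had been sorted by DNA content (1N, 2N, 4N). Per the supplement of the study, each replicate before birth pooled more than a single embryo or gonad, whereas each replicate after birth came from only 1, so p-values measure the spread between pools of different make-up. From E11.5 onward cells were also divided by marker lists into 7893 germ-marker and 1394 somatic-marker cells. Germ-marker cells made up 96.6% of the BVSC gate and 1.75% of the negative gate.

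During gastrulation, epiblast cells respond to Nodal, Wnt and BMP signals, pass through the primitive streak and become mesoderm or definitive endoderm. T and Eomes are T-box factors of the streak, and Mixl1 is a homeobox factor induced there. Mesp1 is a basic helix-loop-helix factor of the earliest migrating mesoderm, including heart precursors. Hand1 belongs to the same protein class and is used in extra-embryonic and lateral mesoderm and in trophoblast, while Msx1 and Msx2 are homeobox factors that respond to BMP. Mouse germ cells arise in the posterior epiblast under BMP and Wnt at this same stage, and early germ cells are known to carry a transient mesodermal programme.

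In the mm10 build with GENCODE M21 annotation, T lies at chr17:8434423-8442496 (plus strand) and Eomes at chr9:118478212-118486132 (plus strand). Mixl1 lies at chr1:180693043-180697034, Mesp1 at chr7:79792241-79793788 and Hand1 at chr11:57828705-57832818, all on the minus strand. Msx1 lies at chr5:37820485-37824583 and Msx2 at chr13:53466884-53473074, also on the minus strand. RefSeq promoters (GRCm38.p6, 250 bases before to 50 bases after the annotated start, so that the last bases fall within the first exon) were found for 5 of the 7 genes. Those of Mesp1 (chr7:79793541-79793840, minus strand) and T (chr17:8434173-8434472, plus strand) are shown because these genes had the largest opposed movements in later germ cells. Capitals mark a T-box half-site (TCACACCT) and a Tcf/Lef site (CTTTGAT), both searched on both strands.
Mesp1: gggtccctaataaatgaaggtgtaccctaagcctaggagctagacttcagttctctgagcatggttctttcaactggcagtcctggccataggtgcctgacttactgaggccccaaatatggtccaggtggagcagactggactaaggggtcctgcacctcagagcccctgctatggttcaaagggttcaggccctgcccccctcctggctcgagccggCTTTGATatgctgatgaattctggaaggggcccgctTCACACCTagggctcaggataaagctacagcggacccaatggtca
T: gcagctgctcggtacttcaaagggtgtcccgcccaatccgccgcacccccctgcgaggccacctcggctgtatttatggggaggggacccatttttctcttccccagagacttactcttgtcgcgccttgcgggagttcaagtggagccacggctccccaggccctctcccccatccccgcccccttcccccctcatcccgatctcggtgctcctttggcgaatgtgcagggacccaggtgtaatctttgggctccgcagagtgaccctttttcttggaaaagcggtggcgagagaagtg
The T-box letters were present in 419 of 32851 promoters of that length (1.28%) and in 1 of the 5, that of Mesp1. The Tcf/Lef letters were present in 1225 of 32851 (3.73%) and again only in the Mesp1 promoter among the 5. A match is a description of letters and was not tested as a binding site.

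At E6.5 the 7 genes were high in the pools R2 and R3 and mostly low in R1. T stood at 10.9 CPM in R1 (469 cells), 309 CPM in R2 (166 cells) and 297 CPM in R3 (96 cells), and Mesp1 stood at 4.13, 376 and 314 CPM. Hand1 was measured at 75.5, 421 and 157 CPM, and Mixl1 at 30.7, 174 and 387 CPM. The R1 pool was thus below both others for these 4 genes, for Msx1 (35.5, 275 and 214 CPM) and for Msx2 (30.9, 244 and 201 CPM). Eomes was different, with 110 CPM in R1, 56.3 CPM in R2 and 182 CPM in R3. Of the 469 cells of R1, 280 had the epiblast marker list as their highest list, 22.8% the visceral endoderm and hindgut list and 72 the extra-embryonic ectoderm list, whereas 78.9% of the 166 cells in R2 had the mesoderm list.

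At E7.5 the 4 pools were as unequal. T measured 233 CPM in R1 (476 cells), 297 CPM in R2 (277 cells), 13.3 CPM in R3 (95 cells) and 43.8 CPM in R4 (47 cells). The same pools gave 186, 374, 4.23 and 11.3 CPM for Mesp1 and 288, 345, 9.49 and 33.1 CPM for Hand1. Mixl1 gave 107.8, 193, 28.7 and 1.78 CPM. R1 and R2 were therefore high and R3 and R4 low for these 4 genes. The order was another one for Eomes, with 11.4, 64.8, 178 and 16.3 CPM, and for Msx1, with 230, 218, 55.6 and 348 CPM. Msx2 ranged from 55.8 CPM in R3 to 240 CPM in R2. In R3, 49 cells were led by the blood list and 44 by the visceral endoderm and hindgut list, and in R4, 32 of 47 cells were led by the early germ cell list.

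By E8.5 the streak genes were low in all 3 pools while the Msx genes stayed high. Sampling changed at the same point, from cells without a reporter gate at E7.5 to BVSC cells at E8.5. Stage and sampling therefore cannot be told apart between these time-points. T measured 2.62, 10.98 and 12.2 CPM, Eomes 4.97, 0.709 and 4.86 CPM, and Mixl1 0.741, 0 and 4.62 CPM. Mesp1 measured 0, 9.44 and 4.95 CPM, and Hand1 1.57, 15.4 and 23.1 CPM. Msx1 remained at 169, 212 and 188 CPM and Msx2 at 61.4, 231 and 122.3 CPM. Of the 48 cells of R1, 47 were led by the visceral endoderm and hindgut list, as were 30 of 48 in R3, whereas 74 of 95 in R2 were led by the early germ cell list. In the 2 pools of E9.5 T was at 0.153 and 0.422 CPM, no UMI of Eomes was seen, and Hand1 was at 6.67 and 2.74 CPM. Msx1 was then at 52.01 and 31.3 CPM and at 19.2, 9.70 and 21.3 CPM in the 3 pools of E10.5. Msx2 kept 158 and 177 CPM at E9.5 and 144.2, 148 and 111.4 CPM at E10.5, the only 1 of the 7 genes with over 100 CPM in every pool of E9.5 and E10.5.

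**Figure D1:**
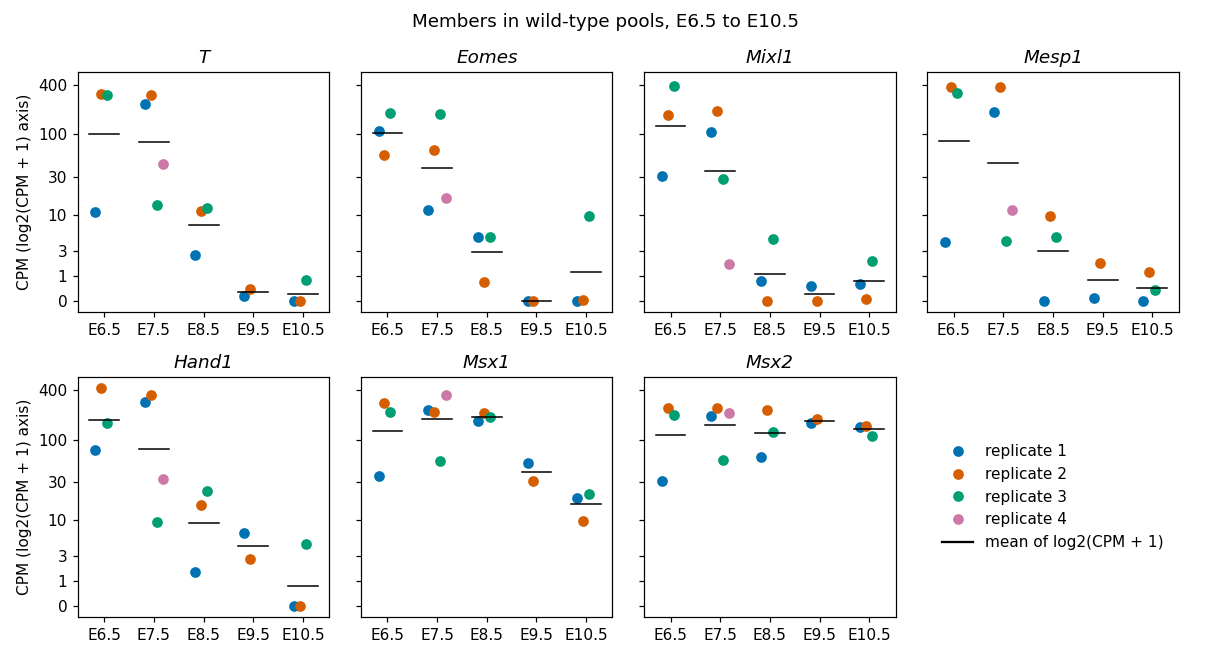
Level of each of the 7 genes in wild-type pools from E6.5 to E10.5, in CPM on a log2(CPM + 1) axis. Each point is 1 pool coloured by replicate and each line is the mean of log2(CPM + 1). At E9.5 T, Eomes, Mixl1 and Mesp1 lie at or below 1.90 CPM and Hand1 at 6.67 and 2.74 CPM, Msx1 is lower at E9.5 and E10.5 than at E8.5, and Msx2 stays between 111.4 and 177 CPM at E9.5 and E10.5.

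Pool means and their spread give the order of the time-points. T averaged 206 ± 169 CPM at E6.5 (SD, n = 3), 146.8 ± 139.7 CPM at E7.5 (n = 4), 8.61 ± 5.23 CPM at E8.5 (n = 3) and 0.288 ± 0.190 CPM at E9.5 (n = 2). For each of the 7 genes the difference between the means of E6.5 and E7.5 was smaller than the larger of the SDs. Mesp1 averaged 231 ± 199, 143.9 ± 175, 4.80 ± 4.72 and 0.996 ± 1.28 CPM over the same stages. Msx1 averaged 175 ± 124.2, 213 ± 120.3, 190 ± 21.6 and 41.7 ± 14.6 CPM, and Msx2 159 ± 112.7, 174 ± 81.1, 138.3 ± 85.97 and 168 ± 13.8 CPM. For T and Mesp1 the spread was widest at E6.5 and E7.5.

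The edgeR quasi-likelihood test on pool sums (Benjamini-Hochberg adjusted over all genes tested) called no gene between E7.5 and E6.5. That is 0% of 19166 genes, with 756 at an unadjusted p under 0.05, and DESeq2 called 47. Between E8.5 and E7.5 it called 7 of 19166 genes (0.0365%), and none of these was among the 7 genes described here. The estimates were nevertheless large, with log2 fold changes of -5.57 ± 1.76 for Mixl1 (SE, adjusted p = 0.177), -4.90 ± 1.90 for Mesp1 (adjusted p = 0.241) and -4.33 ± 1.66 for Eomes (adjusted p = 0.239). T had -4.10 ± 1.33 (adjusted p = 0.186) and Hand1 -3.68 ± 1.53 (adjusted p = 0.260). Msx1 (-0.17 ± 0.57, adjusted p = 0.905) and Msx2 (-0.34 ± 0.57, adjusted p = 0.796) were near 0. The change of stage and the change to BVSC sorting cannot be told apart in these estimates. DESeq2 called 1120 genes here, Mixl1 among them (adjusted p = 0.0278). Leaving out E8.5 R2 raised the edgeR count to 1004 and leaving out E7.5 R4 raised it to 73. The count was 0 without E7.5 R1, R2 or R3 and without E8.5 R1 or R3.

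Between E9.5 and E8.5, 5 genes were called (0.0261%), again none of the 7. Cells led by the early germ cell list made up 93.75% and 97.9% of E9.5 R1 and R2. They made up 0%, 77.9% and 31.25% of E8.5 R1, R2 and R3. Stage and cell mixture therefore changed together in this comparison. Msx1 had a log2 fold change of -2.13 ± 0.74 (adjusted p = 0.131) and T of -4.82 ± 1.81 (adjusted p = 0.154). Msx2 had 0.36 ± 0.67 (adjusted p = 0.792), and Eomes is listed at 0 in both E9.5 pools. DESeq2 called 2357 genes, including Msx1 (log2 fold change -2.14, adjusted p = 0.0237) and Eomes. Without E8.5 R2 edgeR called 3485 genes. It called none without E8.5 R1 or without E9.5 R2. No gene was called between E10.5 and E9.5 (0%, 686 at an unadjusted p under 0.05, and 81 by DESeq2). T, Eomes, Mixl1, Mesp1 and Hand1 were at 9.64 CPM or less in each of the 5 pools of E9.5 and E10.5, the highest being Eomes in E10.5 R3, but the difference itself did not pass the edgeR test against the spread among the earlier pools.

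Genes that work with these factors were counted in 5 lists. Between E8.5 and E7.5 the list of streak and early mesoderm genes had a median log2 fold change of -2.45 over 24 tested genes, against -0.07 over all genes. The list of lateral, extra-embryonic and cardiac mesoderm genes had -1.35 over 24, other T-box genes -1.26 over 8, and upstream signals -0.92 over 20. The Msx-related homeobox genes and Hand partners had -0.59 over 8. No list gene was called in that comparison, so these medians are descriptions, and stage and sampling changed together in it. Between E9.5 and E8.5 the called list gene was Id1, a BMP-responsive inhibitor of basic helix-loop-helix factors, with -2.22 ± 0.33 (edgeR, adjusted p = 0.0450). That call was lost without E8.5 R1, without E9.5 R2 and without visceral endoderm, extra-embryonic ectoderm and blood-marker cells, where no gene was called. It was also lost without E8.5 R3 and without E9.5 R1, where the only called gene was higher at E9.5.

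The members were divided differently among the marker classes of the early embryo. Classes were set by the highest of 7 marker lists that held none of the 7 genes, so a class is a range of cells and not a proven type. In mesoderm-marker cells Mesp1 measured 408 CPM at E6.5 R2, 459 CPM at E6.5 R3, 294 CPM at E7.5 R1 and 436 CPM at E7.5 R2. Hand1 measured 457, 237, 421 and 403 CPM there, and T 304, 333, 303 and 323 CPM. T thus differed little among the mesoderm-marker cells of these 4 pools. Visceral endoderm and hindgut cells were lower, with 77.9 CPM of T and 45.5 CPM of Mesp1 at E7.5 R1 and 60.7 and 72.3 CPM at E7.5 R2 (14 cells).

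Early germ-marker cells held the Msx genes in every pool from E6.5 to E8.5 with at least 10 such cells, while T differed between those pools. At E6.5 R2 the 20 germ-marker cells had 427 CPM of T, 324 CPM of Msx1, 176 CPM of Mesp1 and 72.05 CPM of Mixl1. At E7.5 R1 the 19 cells had 317 CPM of T, 419 CPM of Msx1 and 279 CPM of Msx2, beside 98.2 CPM of Mesp1 and 23.3 CPM of Mixl1. The 22 germ-marker cells of E7.5 R2 had 184 CPM of T, 341 CPM of Msx1 and 117.1 CPM of Mesp1. In these 3 pools Msx1 was above its mesoderm-marker level (276, 223 and 216 CPM), and Mixl1 and Mesp1 were below theirs. T was much lower in the 32 germ-marker cells of E7.5 R4, with 38.5 CPM beside 351 CPM of Msx1. The 74 of E8.5 R2 had 8.55 CPM of T with 213 CPM of Msx1 and 244 CPM of Msx2, and the 15 of E8.5 R3 had 8.22, 239 and 258 CPM. Eomes was at 17.7 CPM in the germ-marker cells of E6.5 R2, at 1.012, 7.18 and 16.4 CPM at E7.5 R1, R2 and R4, and at 0.0698 and 1.89 CPM at E8.5 R2 and R3. With few pools per class these differences were described and not tested.

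Eomes and Hand1 were also high outside the embryo proper. In the 72 extra-embryonic ectoderm cells of E6.5 R1 Eomes measured 205 CPM and Hand1 356 CPM, where T measured 18.8 CPM and Mesp1 1.295 CPM. Eomes has a known role in trophoblast and visceral endoderm, and it measured 112.4 CPM in the visceral endoderm and hindgut cells of that pool and 86.1 CPM in its 280 epiblast-marker cells. Mixl1 and Msx1 were at 84.7 and 128.2 CPM in those visceral endoderm and hindgut cells. The epiblast-marker cells had 11.7 CPM of T and 5.97 CPM of Mesp1, so that this pool held cells with Eomes and little T.

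**Figure D2:**
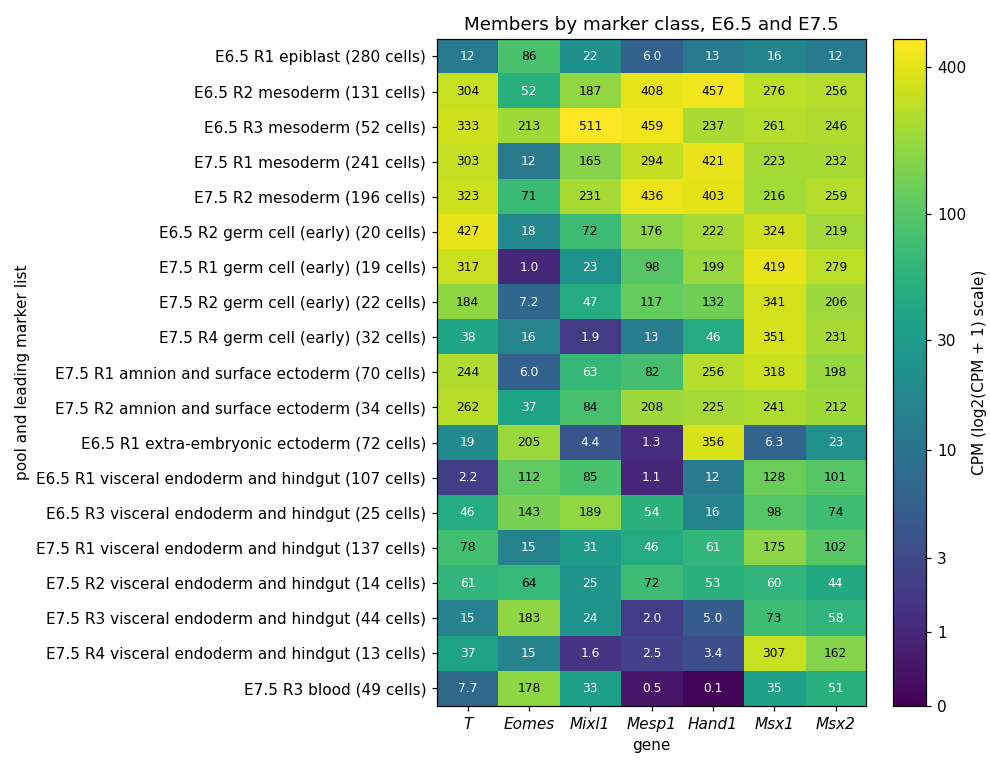
Level of the 7 genes by marker class in wild-type pools of E6.5 and E7.5, in CPM on a log2(CPM + 1) scale, for classes of at least 10 cells. Mesoderm-marker cells carry T, Mesp1 and Hand1 in 4 pools. Germ-marker cells carry T and the Msx genes at E6.5 R2, E7.5 R1 and E7.5 R2, and extra-embryonic ectoderm cells of E6.5 R1 carry Eomes and Hand1.

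T differed by sampling label within libraries that held both labels, but not in the same way across libraries. In 4 libraries of E7.5 that held both labels, T was lower in the FACSrandom cells than in the EPIrandom cells of the same library. The values were 87.2 against 318 CPM, 101.3 against 198 CPM (8 EPIrandom cells), 173 against 330 CPM and 90.02 against 313 CPM. Over E7.5 R1 this gave 111.95 CPM in 184 FACSrandom cells and 308 CPM in 292 EPIrandom cells, and Mesp1 gave 79.6 and 252 CPM. In E7.5 R2, however, the 2 libraries of FACSrandom cells alone had 318 and 340 CPM of T, so that over the pool T was at 294 CPM in 229 FACSrandom cells and 313 CPM in 48 EPIrandom cells. The FACSrandom cells of E6.5 R3 had 297 CPM. Those of E7.5 R3 and R4 that shared 1 library had 18.7 and 43.8 CPM, and the other library of R3 had 7.18 CPM. The FACSrandom label thus went with both high and low T. The part of sampling in the differences between pools was not tested.

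Detection per cell was compared after every cell was thinned to 50000 UMIs. T was seen in 15.9% of cells at E6.5 R1, 100% at R2 and 92.6% at R3, and in 89.8%, 99.3%, 27.96% and 42.6% of cells in the 4 pools of E7.5. The mean share of cells with T was 69.5% ± 46.6 at E6.5 (SD, n = 3), 64.9% ± 34.9 at E7.5 (n = 4), 9.60% ± 6.59 at E8.5 (n = 3) and 1.08% ± 1.52 at E9.5 (n = 2). Mesp1 was seen in 5.29%, 100% and 96.8% of cells at E6.5. Msx2 was seen in 97.8% of cells at E9.5 and 90.8% at E10.5, where Msx1 was seen in 48.6% and 27.97%. Without thinning, T had a UMI in 98.8% of the mesoderm-marker cells of E7.5 R1 (median 256662 UMIs) and in 95.6% of its visceral endoderm and hindgut cells (median 226621 UMIs). A share at this depth therefore did not separate the classes, and the CPM values above did.

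Most cells of the high pools carried most of the genes at once. All 7 genes were seen in 54.04% of cells at E6.5 R2, 60.6% at E6.5 R3, 11.1% at E7.5 R1 and 162 of 270 cells at E7.5 R2. The same count was 0.22% at E6.5 R1, 1.08% at E7.5 R3 and 0% at E7.5 R4. At E9.5 R1 and R2 40.9% and 53.3% of cells had 1 of the genes and 51.6% and 42.4% had 2. Where a gene is seen in nearly every cell, a pair cannot be seen together more often than its shares imply. The ratio of observed to expected cells for T with Mixl1 was accordingly 1.10 ± 0.19 over 5 pools (SD, range 0.999 to 1.44).

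The pool E6.5 R1 left most room for such a ratio, because T was rare there. T and Mixl1 were seen together at 1.44 times the number expected from their shares, T and Eomes at 1.24 times and T and Hand1 at 1.21 times. Of the 72 cells with T, 70 also had Eomes where 56.6 were expected. Msx1 with Msx2 reached 1.49 times and Mixl1 with Msx2 1.44 times. Some pairs of that pool were near or below 1, with Mixl1 and Hand1 at 0.88 times, Eomes and Hand1 at 0.99 times and T and Msx1 at 1.07 times. In E7.5 R3 T and Msx1 were seen together in 23 cells against 15.1 expected. In E7.5 R1 Mixl1 and Mesp1 were seen together in 281 cells against 252.3 expected, a ratio of 1.11, and Eomes with Mesp1 gave 0.90. These are ratios within pools that mix cell classes and cover 1 or a few pools, so they carry no test.

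**Figure D3:**
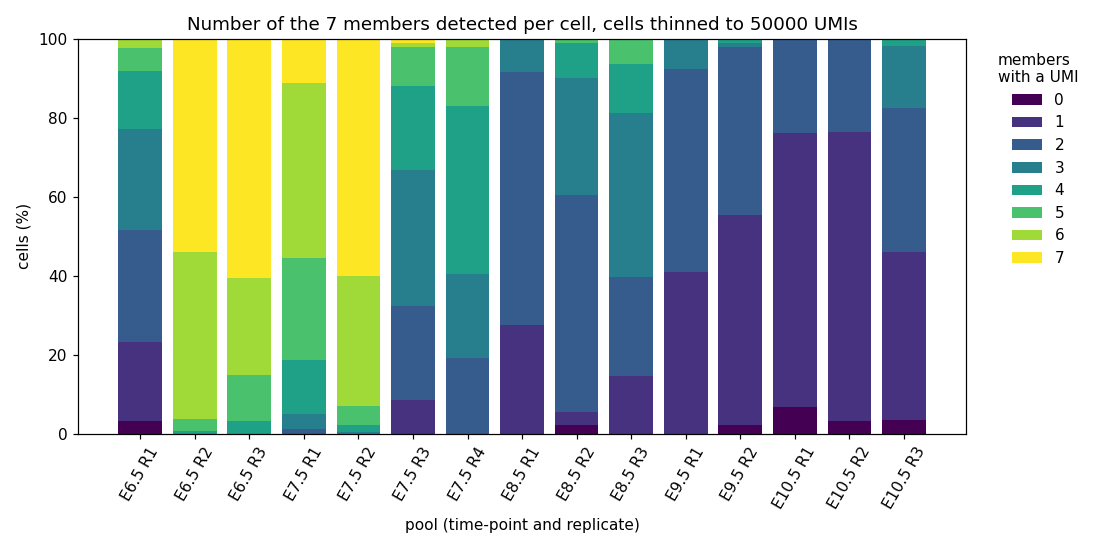
Share of cells (percent) by how many of the 7 genes had a UMI, for each wild-type pool from E6.5 to E10.5 after thinning to 50000 UMIs per cell. Cells with all 7 genes make up 54.04% to 60.6% of E6.5 R2, E6.5 R3 and E7.5 R2, and from E9.5 most cells have 1 or 2.

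Across the cells of E7.5, the genes with the pattern most like each member were named by Pearson's r of log2(CPM + 1), averaged over the 4 pools. T was closest to Fst (mean r = 0.51), Sall3 (0.50) and Evx1os (0.50), and Mixl1 to Tbx6 (0.44), Fst (0.41) and Aplnr (0.40). Mesp1 was closest to Fgf3 (0.48), Chst7 (0.47) and Hand1 (0.45). Hand1 was closest to Phlda2 (0.57), Lef1 (0.49) and Slc38a4 (0.49). The nearest gene to Msx1 was Msx2 (0.46), and the reverse also held. The highest value for Eomes was 0.32 (Smarca5), and among the members it gave 0.25 with Mixl1, 0.10 with Mesp1 and between -0.09 and 0.05 with the others. T gave 0.43 with Mesp1 and 0.39 with Mixl1 but 0.07 with Msx2, and Mixl1 gave 0.03 with Msx1. The pools differed behind these means, with 0.70, 0.72, 0.32 and 0.30 for T with Fst in R1 to R4. Mixl1 with Tbx6 gave 0.68, 0.68, 0.12 and 0.27, and Eomes with Smarca5 gave 0.14, 0.16, 0.38 and 0.59. Cells of a pool share libraries, depth and class mixture, and these values are descriptive.

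In the fetal gonad the genes were measured in BVSC and negative cells. T was low in BVSC cells through E14.5 (at most 2.56 CPM) and higher later, with 0.839 and 0 CPM at E11.5, 1.76 and 2.12 CPM at E14.5, 18.47 and 2.32 CPM at E15.5, and 58.8 and 44.2 CPM at E16.5. It measured 85.6 and 86.7 CPM at E17.5 and 58.7 and 64.8 CPM at E18.5. The negative cells had at most 3.37 CPM at every time-point except E16.5 R1, with 14.6 CPM. Both replicates of BVSC cells were above both replicates of negative cells at every time-point from E12.5 on.

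Mixl1 and Mesp1 took a similar course at lower levels. Mixl1 in BVSC cells was at 13.8 and 12.2 CPM at E16.5, 22.3 and 23.1 CPM at E17.5 and 22.3 and 17.2 CPM at E18.5, after at most 2.90 CPM up to E15.5. Mesp1 in BVSC cells was at 0 at E11.5 and E12.5, at 12.3 and 12.6 CPM at E17.5 and at 11.6 and 8.90 CPM at E18.5. Eomes reached 7.52 and 9.44 CPM and Hand1 3.27 and 2.25 CPM at E18.5. Msx2 was high at the start as well, with 47.3 and 78.7 CPM at E11.5, 3.60 and 6.90 CPM at E13.5 and 60.3 and 50.8 CPM at E18.5.

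Msx1 was on the other side of the gate at E11.5. Negative cells had 138.4 and 61.8 CPM of Msx1 there against 6.68 and 6.10 CPM in BVSC cells, and the gates overlapped from E12.5 to E14.5. At E15.5 and E16.5 negative cells were again higher, with 10.8 and 5.46 CPM against 0.0320 and 1.03 CPM at E15.5. At E17.5 and E18.5 the BVSC cells were the higher ones, with 2.71 and 1.61 CPM against 0 and 1.56 CPM at E17.5.

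**Figure D4:**
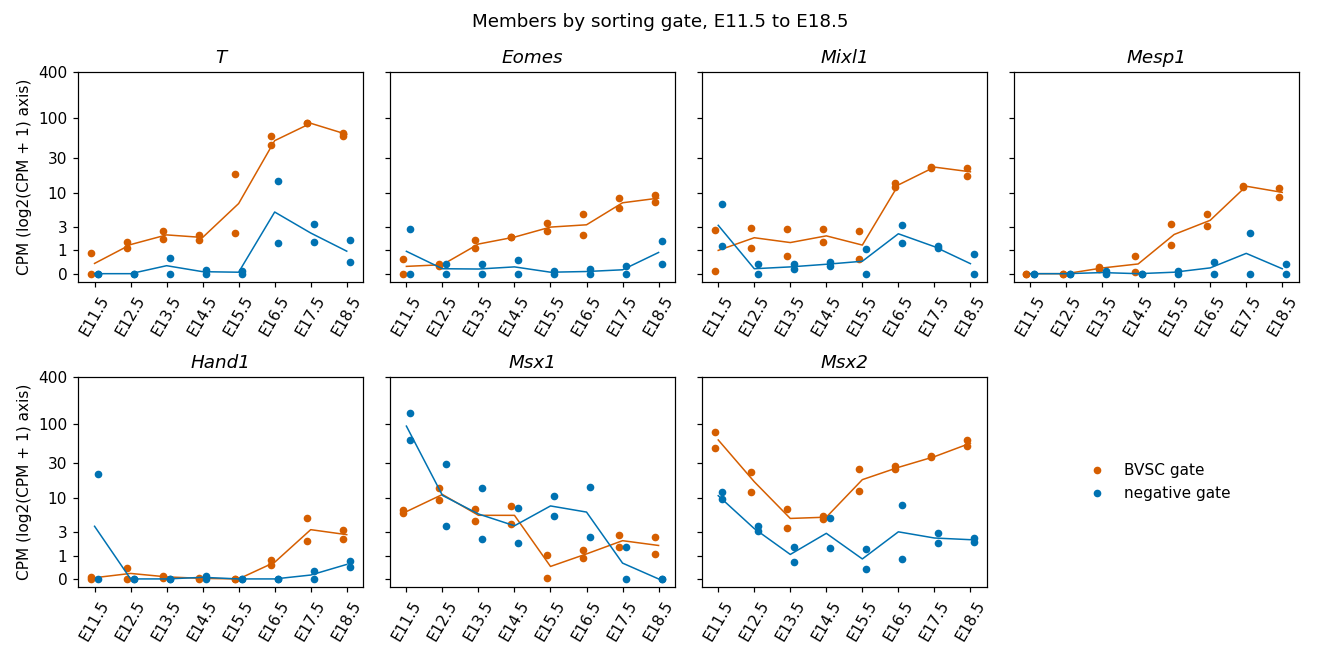
Level of the 7 genes in the BVSC gate and the negative gate from E11.5 to E18.5, in CPM on a log2(CPM + 1) axis. Each point is 1 replicate and each line joins the means of log2(CPM + 1) of 2 replicates. T and Mixl1 in BVSC cells lie highest from E16.5, Msx2 has a low point at E13.5, and Msx1 is highest in negative cells at E11.5.

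Over E11.5 to E18.5, edgeR with time-point as a term called 63% of 15243 genes between the gates, 33.1% higher in BVSC cells and 29.9% lower. T was higher in BVSC cells by 4.52 ± 0.59 on the log2 scale (adjusted p = 1.675e-07), Msx2 by 2.82 ± 0.36 (adjusted p = 1.348e-07) and Mixl1 by 2.59 ± 0.66 (adjusted p = 0.00122). Mixl1 lost its call without R1 (adjusted p = 0.128). Msx1 had -1.03 ± 0.69 (adjusted p = 0.197). Eomes, Mesp1 and Hand1 did not pass the filter on low counts. The gate effect on T before E14.5 and from E14.5 differed by 0.98 ± 1.40 (adjusted p = 0.680), and no member passed the test of that difference, which called 24.4% of genes. The change of stage and the change of sorting reporter at E14.5 cannot be told apart in it. Negative cells at E11.5 to E13.5 had so little T (0.101 ± 0.247 CPM, SD, n = 6) that the early gate effect rests on few UMIs.

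The companion lists split at the same gate. Of 17 tested streak and early mesoderm genes 13 were higher in BVSC cells and 1 was lower, with a list median of 3.43 against 0.07 over all genes. The shares over all genes were 33.1% higher and 29.9% lower. Lhx1 (5.55 ± 0.70), Nodal (5.18 ± 0.59), Wnt3 (4.89 ± 0.55) and Dll3 (3.80 ± 0.42) were among them. Nodal and Wnt3 are secreted signals of gastrulation, Lhx1 is a homeobox factor and Dll3 a Notch ligand. Of 17 lateral and cardiac mesoderm genes 3 were higher and 9 lower, including Cdh11 (-6.21 ± 0.67), Gata4 (-5.32 ± 0.33) and Pdgfra (-4.89 ± 0.42), and Gata4 and Pdgfra were also markers of gonadal somatic cells here. Among 18 upstream signal genes 5 were higher and 8 lower, with Id2 (-4.23 ± 0.31) and Id1 (-3.81 ± 0.27) lower in BVSC cells. Other T-box genes gave 2 higher and 1 lower of 3, the last being Tbx2 (-4.63 ± 0.59), and the Msx-related list 2 lower of 3.

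In germ-marker cells after birth these low levels were kept for some days. T measured 37.7 and 61.9 CPM at PND0, 31.3 and 44.2 CPM at PND2, 25.4 and 36.4 CPM at PND4, 5.46 and 2.38 CPM at PND6, and 1.53 and 0.667 CPM at PND8. Msx2 measured 63.3 and 52.7 CPM at PND0 and 10.4 and 5.14 CPM at PND8. Eomes lay between 5.91 and 23.9 CPM at PND0 to PND2 and was at 1.92 and 1.37 CPM at PND8. The last 2 pools were below all pools of PND0 to PND2 for each of these 3 genes.

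Between PND0-PND2 and E14.5-E18.5, edgeR called 8.3% of 24542 genes and none of the 7. These groups join time-points, so their SDs, SEs and adjusted p also hold the differences between time-points of a group. Mean T, for example, was 1.97 CPM at E14.5 and 96.4 CPM at E17.5, and 27.8 CPM at PND3 and 1.10 CPM at PND8. Mesp1 had a log2 fold change of 1.23 ± 0.60 (adjusted p = 0.226) and T of -0.23 ± 0.87 (adjusted p = 0.951). Between PND3-PND8 and PND0-PND2 the test called 38.9% of genes, 3581 higher (14.6%) and 5965 lower (24.3%). With DESeq2-style size factors the split was 2175 to 7522, and the median of all genes moved from -0.28 to -0.53. Of the 7, 2 were called, Msx2 (-1.14 ± 0.43, adjusted p = 0.0327) and Hand1 (-3.07 ± 1.17, adjusted p = 0.0338), both lower. Neither call held when R1 or R2 was left out, with adjusted p of 0.302 and 0.166 for Msx2 and 0.287 and 0.118 for Hand1. T averaged 36.97 ± 15.1 CPM at PND0-PND2 (SD, n = 6) and 12.3 ± 14.55 CPM at PND3-PND8 (n = 12), with a log2 fold change of -1.24 ± 0.81 (adjusted p = 0.219). Of the streak list 0 genes rose and 7 fell of 23, and of the lateral list 0 rose and 12 fell of 24, among them Mef2c (-2.88 ± 0.59), a factor of heart and muscle. Other T-box genes gave 2 rises and 5 falls of 10, the Msx-related list 0 and 3 of 9, and the upstream signals 2 and 6 of 20.

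Within the pools from PND0 to PND8, T was higher beside the markers of undifferentiated spermatogonia, the stem and progenitor cells of the testis. Germ-marker cells of 14 pools were divided by whether the undifferentiated list (such as Gfra1, Etv5 and Id4) or the differentiating list (such as Stra8 and Kit) was higher. T was higher in the undifferentiated side in 13 of 14 pools, with medians of 16.1 and 2.96 CPM. Eomes was higher there in 12 of 14 pools, with medians of 9.17 and 3.72 CPM. Mixl1 and Msx1 were higher in 10, Msx2 in 8, Mesp1 in 7 and Hand1 in 3 of 14. The sides are cut from a score in the same cells and are described without a test.

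Germ-marker and somatic-marker cells of PND0 to PND8 were then compared. Germ-marker cells averaged 20.5 ± 18.6 CPM of T (SD, n = 18 pools) and somatic-marker cells 1.43 ± 1.71 CPM (n = 13). Msx2 averaged 30.8 ± 19.8 and 3.95 ± 4.06 CPM, and Eomes 8.12 ± 5.87 and 1.23 ± 1.84 CPM. These SDs also hold the differences between time-points. edgeR called 70.2% of 17939 genes after the marker genes were taken out, 40.5% higher in germ-marker cells and 29.7% lower. The sides were cut from transcript scores of the same cells, so genes that follow the markers differ in part through the cut. Taking out the marker genes does not remove this, and the adjusted p do not test an independent division of the cells. The log2 differences were 2.98 ± 0.42 for T (adjusted p = 3.847e-07), 2.42 ± 0.36 for Msx2 (adjusted p = 9.037e-07) and 2.62 ± 0.40 for Eomes (adjusted p = 1.167e-06). Mixl1 (2.82 ± 0.42), Mesp1 (2.80 ± 0.52) and Msx1 (3.29 ± 0.61) were also called, and Hand1 did not pass the filter. Of the streak list 12 genes were higher and 0 lower of 18, with a list median of 1.91 against 0.25 over all genes, and of the lateral list 9 were higher and 6 lower of 18. The other lists gave 3 higher and 1 lower of 5 T-box genes, 3 and 2 of 6 in the Msx-related list and 7 and 6 of 19 upstream signals. Cdh11 (-5.43 ± 0.44) and Id2 (-4.78 ± 0.32) were lower in germ-marker cells and Lef1 (2.57 ± 0.22), a Wnt effector, was higher.

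After PND14, Mesp1 was the only 1 of the 7 genes above 6 CPM, and it was at levels like those of the high pools of E6.5 and E7.5. In germ-marker cells it measured 15.7 and 19.6 CPM at PND8, 13.48 and 10.1 CPM at PND10, 9.41 and 90.2 CPM at PND12 and 8.93 and 17.6 CPM at PND14. At PND30 it measured 395 and 406 CPM, at PND35 442 and 412 CPM and in the adult 27.2 and 446 CPM. Both PND30 and both PND35 pools and adult R2 were thus above every earlier postnatal pool, and adult R1 was not. Shares of cells were taken over all cells of a pool, germ-marker and somatic-marker cells together. Cells with a Mesp1 UMI at 50000 UMIs made up 99.6% and 99.8% at PND30, 100% and 100% at PND35 and 48.2% and 100% in the adult. The share was between 3.57% and 52% in the pools of PND0 to PND8, between 10.99% and 44.95% in those of PND10 to PND14 and 0% in those of E11.5 and E12.5. Adult R1, with 58 somatic-marker cells among 377, thus lay within the range of the earlier postnatal pools. Those pools differed in mixture, with 86 somatic-marker cells among 110 in PND2 R1.

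The adult pools differed in germ cell stage markers. Adult R1 had 214 CPM of Stra8, a gene of differentiating spermatogonia and meiotic entry, 631 CPM of Dazl and 50.7 CPM of Prm1, a protamine of spermatids. Adult R2 had 4.46, 71.3 and 430 CPM of these genes. PND12 R2, with more Mesp1 than R1, also had 40.2 CPM of Prm1 against 0.225 CPM. The part of these markers in the Mesp1 levels was not tested. By DNA content at PND30, Mesp1 measured 394 CPM in 1N, 360 CPM in 2N and 424 CPM in 4N cells of R1, and 272, 405 and 565 CPM in R2. Levels were therefore high in all 3 DNA classes, and in both replicates higher in 4N than in 1N cells.

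**Figure D5:**
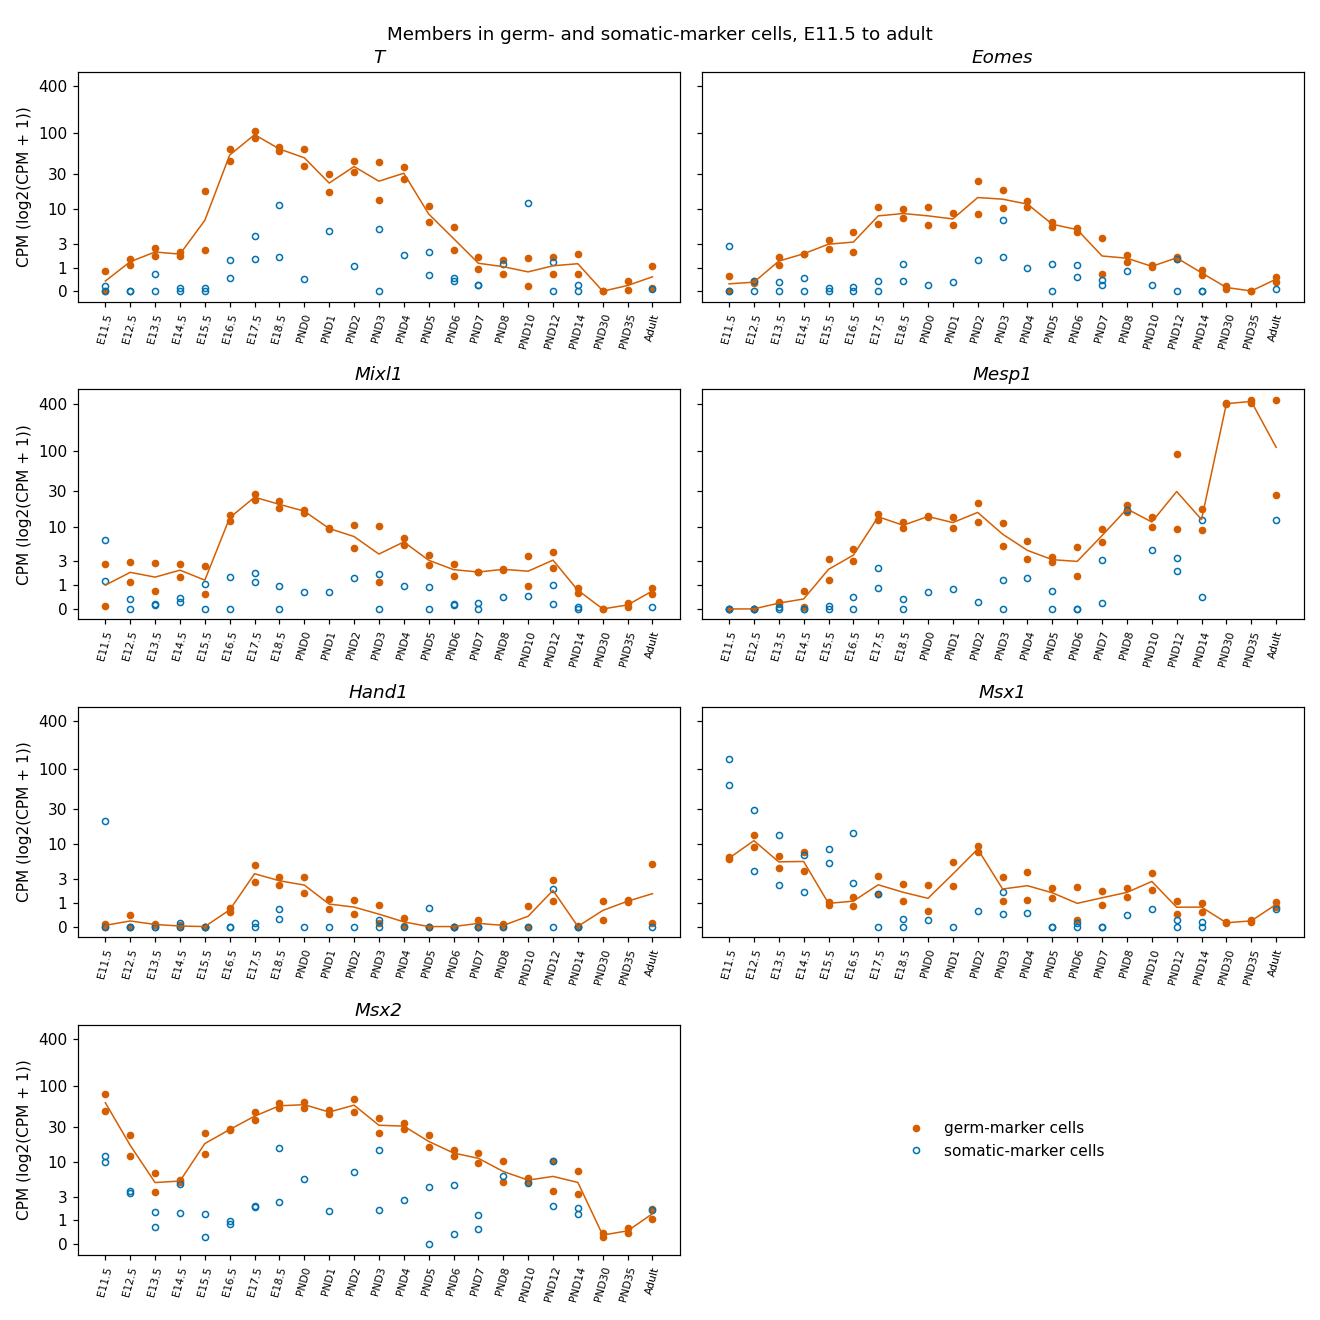
Level of the 7 genes from E11.5 to the adult, in CPM on a log2(CPM + 1) axis. Each filled point is the germ-marker cells of 1 pool and each open point the somatic-marker cells of 1 pool. Each line joins the means of log2(CPM + 1) of germ-marker cells. In germ-marker cells T, Mixl1, Msx2 and Eomes are lower at PND8 than at PND0. Mesp1 in germ-marker cells lies between 395 and 446 CPM in 5 of the 6 pools from PND30 on.

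Between PND30-adult and PND3-PND8, edgeR called 72.1% of genes, 41.4% higher and 30.8% lower. The groups again join time-points, so the SDs and SEs also hold the differences between them. Mesp1 rose by 6.26 ± 0.63 on the log2 scale (adjusted p = 1.302e-11), and it kept 6.27 without adult R1. Hand1 rose as well, by 4.18 ± 1.19 (adjusted p = 0.00188), from 0.130 ± 0.252 CPM with 6 of 12 pools at 0 to 1.46 ± 1.86 CPM, and lost its call without R1 (adjusted p = 0.0508). The other 5 fell, with log2 fold changes of -4.90 ± 1.10 for T (adjusted p = 1.309e-04), -4.76 ± 0.83 for Eomes (adjusted p = 2.282e-06), -4.22 ± 0.56 for Msx2 (adjusted p = 1.136e-08) and -3.20 ± 0.84 for Mixl1 (adjusted p = 8.166e-04). Msx1 fell by 1.70 ± 0.61 (adjusted p = 0.0126), a call lost without R1 (adjusted p = 0.0792) or R2 (adjusted p = 0.275). The median of all genes in this comparison was 0.29, and 0.53 with DESeq2-style size factors.

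Neighbouring genes were checked for Mesp1. Wdr93 (chr7:79743163-79785950, plus strand) ends 6290 bases from the 3′ end of Mesp1 on the other strand. In germ-marker cells it measured 4.90 and 9.71 CPM at PND10, 12.01 and 108.7 CPM at PND12 and 16.2 and 65.1 CPM at PND14. From PND30 on it measured between 81.6 and 195 CPM, with 81.6 CPM in adult R1 and 153.6 CPM in adult R2. Wdr93 and Mesp1 were thus both higher in R2 than in R1 at PND12, PND14 and PND30 and in the adult. At PND10 and PND35 the replicates were in opposite order for these genes. Mesp2 (chr7:79810727-79813439), the closest relative of Mesp1, measured between 15.8 and 43.9 CPM in the germ-marker pools from PND30 on, and 21.3 and 26.1 CPM at PND10. Reads of the 2 relatives were counted only where they aligned uniquely. Whether strand was used in counting was not given in the sources used here. The part of Wdr93 reads in the Mesp1 counts was not tested.

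The companion genes took both directions after PND8. Over all genes 41.4% rose and 30.8% fell between PND3-PND8 and PND30-adult, with a median of 0.29. In the streak list 4 genes rose and 12 fell of 23, with a list median of -1.14. Dll3 rose by 4.12 ± 0.35, while Fst (-5.54 ± 0.77), Lhx1 (-3.88 ± 0.93) and Lefty2 (-2.51 ± 0.84) fell. In the lateral list 3 rose and 10 fell of 24, and other T-box genes gave 4 and 2 of 10. Of the 20 upstream signal genes 2 rose, Lef1 (2.76 ± 0.26) and Smad1 (2.51 ± 0.23), and 13 fell, among them Bmp7 (-2.88 ± 0.38) and Id1 (-2.63 ± 0.48). In the Msx-related list 3 rose and 5 fell of 9, with Tcf3 (-2.80 ± 0.44) and Tcf12 (-1.88 ± 0.29), general partners of basic helix-loop-helix factors, among those that fell.

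In somatic-marker cells after birth all 7 genes were low. From PND10 to PND14 T lay at 12.3 CPM in 1 of 5 pools and at or below 1.34 CPM in the others, and Mesp1 lay between 0.412 and 12.4 CPM. Dazl, a germ cell gene, measured 133.2 to 354 CPM in the same somatic-marker pools, beside 555 to 770 CPM in germ-marker pools. Reads of germ cell genes were thus counted in those cells too, and their part in their Mesp1 and T levels was not tested.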

How the data were processed

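Mouse cells were profiled by STRT-seq with 3′-end enrichment, in which a cell barcode and a UMI mark each captured RNA molecule. Per the study's methods and the submitters' processing notes, the authors called bases (CASAVA 1.8), extracted barcodes with UMI-tools, trimmed reads, aligned them to mm10 with STAR, assigned uniquely mapped reads to genes with featureCounts (Subread) and counted UMIs with UMI-tools. The deposited values used here are raw UMI counts per gene and cell, with no normalization. The deposited table of cells gives time-point, replicate, genotype and gate.

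The members and the gene lists were chosen with earlier results of these data known. Cells with over 2000 genes and between 10000 and 1000000 UMIs were kept, giving 47 to 572 cells and 15163519 to 197524235 UMIs per pool. The 147 libraries share the same 96 barcodes, so cells were identified by library and barcode together. Cells were picked or sorted singly, and no doublet caller was run. UMI counts were summed per pool (or per pool and gate or marker class, from 10 cells) and tested with edgeR 4.0.16 (quasi-likelihood, TMM, filterByExpr) in R 4.3.3, with Benjamini-Hochberg adjustment over all genes tested and a threshold of 0.05. Standard errors were taken as the log2 fold change over the square root of F. Early cells were assigned to the class whose markers had the highest mean z score. Later cells were assigned to germ or somatic markers by whether the germ list or the highest of the somatic lists had the larger mean log2(CPM + 1), with 180 of 9287 cells within 1 of the border. In the gate comparison, cells with BV alone (32 of 1363) were counted as positive. For detection, cells were thinned to 50000 UMIs and shallower cells left out. Expected co-detection is the product of both shares, shown where at least 10 cells were expected. The edgeR fit of E7.5 against E6.5 was checked on simulated counts with known changes and the same set spread for every gene. That check does not cover the spread between the real pools or the other comparisons.

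The named genes are the 7 members and, per list and comparison, up to 4 called genes with the largest change, above a floor of 4 in mean log2 CPM, and for likeness the 3 genes with the highest mean r of at least 0.3 among 15557 genes seen in at least 5% of the E7.5 cells. Alternatives were other size factors, no low-count filter, DESeq2 1.42.0, limma 3.58.1 on log2(CPM + 1) with equal weight per cell, no cell filter, a stricter marker border, other thinning depths, a pool block and leaving out each replicate. Alternatives without extra-embryonic and blood-marker cells, without adult R1 and with a gate effect per period were added after the data were seen. The 2 sides of the gate, or of the marker split, come from the same biological replicate, and their deviations from the group means correlated between -0.055 and 0.211 for the gates and between 0.048 and 0.186 for the marker split.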

Additional observations from a re-analysis of the deposited data

Results flagged for a closer look

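Outlying pools were sought in 42 sets of germ-marker pools, and 7 were found. The nominal rate of about 1 in 20 holds for pools drawn alike. These sets join time-points, so that rate does not apply to them. Mesp1 gave 90.2 CPM in PND12 R2 where the median of the 6 pools from PND10 to PND14 was 11.8 CPM, and 27.2 CPM in adult R1 where the median of the 6 pools from PND30 on was 409 CPM. T gave 1.10 CPM in adult R2 (median 0.0698 CPM) and Hand1 gave 5.14 CPM in the same pool (median 1.07 CPM). Eomes gave 23.9 CPM in PND2 R2 (median of PND0 to PND2 8.75 CPM), Msx1 gave 7.81 CPM in E14.5 R2 (median of E14.5 to E18.5 1.499 CPM), and Hand1 gave 0.386 CPM in E12.5 R1 (median of E11.5 to E13.5 0.0553 CPM).

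Cells without Helq, a DNA helicase, were in no comparison, and the levels given are those of at least 10 CPM and at least 2 times the higher wild-type pool of the same gate and time-point. At E14.5 Eomes measured 10.1 CPM in Helq-null R1 BVSC cells (wild type 1.93 and 2.00 CPM) and Msx2 14.8 CPM in R2 (wild type 4.98 and 5.55 CPM). At E15.5 Msx1 measured 12.8 and 12.3 CPM in both Helq-null pools (wild type 0.0320 and 1.03 CPM). At E18.5 Mesp1 measured 34.2 CPM in Helq-null R1 BVSC cells (wild type 8.90 and 11.6 CPM) and 33.3 CPM in the negative cells (wild type 0 and 0.341 CPM). Genotype and batch cannot be told apart here. The gate effect on Pdgfra, a receptor of mesenchyme and a companion gene, was less negative from E14.5 than before it, by 1.71 on the log2 scale (edgeR, adjusted p = 0.0410). The reporter used for sorting changed at E14.5 too, and its part cannot be told apart from that of stage.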

How the results depend on the processing

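No called fold change of the 7 genes turned sign. Over all member fold changes, 521 alternative values kept their side of the threshold, 6 passed it newly and 8 lost it. The counts of called genes from E6.5 to E10.5 depended on tool and pools, and the cause was not tested. For E7.5 against E6.5 the count of 0 became 47 with DESeq2. For E8.5 against E7.5 the 7 became 1120 with DESeq2, 92 with limma and 2 without extra-embryonic and blood-marker cells, and ranged from 0 to 1004 when 1 pool was left out. For E9.5 against E8.5 the 5 became 2357 with DESeq2, 731 with limma, 80 with no low-count filter and 0 without those cells, and ranged from 0 to 3485. For E10.5 against E9.5 the 0 became 81 with DESeq2 and 1 with limma, and ranged from 0 to 2, the 2 without E10.5 R3. With 1 replicate left out the later counts, which rest on fewer pools, ranged from 0 to 57 (PND0-PND2, main 2037), 1432 to 2212 (PND3-PND8, main 9546), 11750 to 15993 (PND30-adult, main 17703), 6277 to 6442 (gates, main 9600) and 8170 to 9654 (germ against somatic markers, main 12590). With a pool block the gate count was 9308 and the germ and somatic count 12008, and no member call changed. The mean share of cells with T at E7.5 was 64.9%, 51.8% at 20000 UMIs, 84.95% without thinning and 54.3% from 2 UMIs on. The ratio of T with Mixl1 was 1.10, and 1.00 to 1.16 with the pools of 1 replicate number left out at both stages. Shares moved in 377 of their alternatives. Depth limits Eomes, Mesp1 and Hand1 in the gates, where few UMIs were counted.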
